A study of Homo sapiens with 16 samples.

Results

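The 44 interferon-stimulated genes described here were followed in 8 established lung cancer cell lines grown on plastic and in a gel. They are the IFITM1, IFITM2 and IFITM3 membrane proteins and the IFIT, OAS, MX, HERC, GBP, PARP9 and IRF groups with genes commonly induced beside them. A probe set, a group of short array oligonucleotides, was taken where the annotation gave it to 1 of these genes alone, under its current or a former symbol. That rule found 72 of the 54675 probe sets on the array, for 43 of the 44 genes, out of 19775 genes with a probe set of their own. STAT2 was not analysed here, and 2 probe sets that the annotation shares between genes (1 of IFITM1 with IFITM2, 1 of IRF9 with RNF31) were left out.

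The lines were H358, A549, H23, H1437, H460, A427, H1703 and H661, all labelled as untreated. Each was cultured flat on tissue culture plastic (2D) and on a thin Matrigel layer under medium with dissolved Matrigel (3D), Matrigel being a basement membrane extract. Each line gave 1 Affymetrix U133 Plus 2.0 array per culture, 16 arrays in all, so a line is the replicate and the difference within a single line has no replicate check. The comparison addresses which transcripts differ between the cultures, at a density and in growth media that the labels call similar, apart from the Matrigel.

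Interferons are secreted proteins that cells release when they sense viral nucleic acid. Type I and type III interferons bind receptors on the cell that made them and on its neighbours, and Janus kinases then assemble the ISGF3 complex, in which IRF9 is the DNA-binding subunit. ISGF3 binds the interferon-stimulated response element (ISRE) in promoters, and the genes it switches on encode proteins that block viral entry, bind or degrade viral RNA, tag proteins with ISG15, and renew the sensors and transcription factors of the pathway. Tumour cell lines can carry these genes at a raised level without added interferon, or have lost parts of the pathway.

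Promoter windows were searched for a strict form of the binding element next to each gene's start. RefSeq windows (GRCh38.p14, 250 bases before to 50 after each gene's start) matched 34 of the 43 genes, and IFITM2 was not among them. The motif searched on both strands was TTTCNNTTTC, which reads GAAANNGAAA on the other strand, and overlapping matches were counted. It stood in 23 of the 34 member windows (67.6%) and in 996 of all 27305 windows of the same length (3.65%). The gamma-activated site TTCNNNGAA, the element bound after interferon gamma, stood in 10 of the 34 windows (29.4%) against 7.88% of all windows. The commonest ISRE word was GAAACTGAAA or its reverse, found in 10 members, and the next was GAAACCGAAA or its reverse, found in 8.

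Windows of IFITM1, IFITM3 and LGALS3BP are shown because these genes stand among the 4 largest mean differences. Each line holds 260 bases, the 250 before the start and the first 10 of the first exon, with matches to the motif in capitals. They lie at chr11:313790-314049 on the plus strand, chr11:320851-321110 on the minus strand and chr17:78979914-78980173 on the minus strand.
IFITM1: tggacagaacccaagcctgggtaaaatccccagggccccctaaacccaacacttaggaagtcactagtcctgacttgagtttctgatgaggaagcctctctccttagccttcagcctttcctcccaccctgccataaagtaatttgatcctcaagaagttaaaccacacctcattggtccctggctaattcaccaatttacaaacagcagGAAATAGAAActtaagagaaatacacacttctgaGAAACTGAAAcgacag
IFITM3: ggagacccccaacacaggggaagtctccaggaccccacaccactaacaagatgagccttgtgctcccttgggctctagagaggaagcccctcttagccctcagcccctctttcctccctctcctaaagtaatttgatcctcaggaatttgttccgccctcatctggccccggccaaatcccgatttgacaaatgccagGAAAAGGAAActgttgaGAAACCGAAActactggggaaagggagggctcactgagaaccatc
LGALS3BP: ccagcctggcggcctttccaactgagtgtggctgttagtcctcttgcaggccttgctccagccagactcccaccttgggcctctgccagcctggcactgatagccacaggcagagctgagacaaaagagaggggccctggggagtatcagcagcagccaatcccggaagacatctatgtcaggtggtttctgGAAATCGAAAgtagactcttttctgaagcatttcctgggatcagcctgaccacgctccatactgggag
Counted from the start, the IFITM1 matches begin at positions -40 and -6, those of IFITM3 at -52 and -35, and the match of LGALS3BP at -58. IFITM1 carries the GAAACTGAAA word, IFITM3 the GAAACCGAAA word, and LGALS3BP GAAATCGAAA. A match is a string of letters and not a measured binding site, and a window without a match may still hold a variant of the element. The OAS1, RSAD2 and XAF1 windows hold GAAACGAAA and the IFI35 window holds GAAATGAAA, both with a shorter spacer. All of these windows were counted as without a match. Among members with a tested probe set, the 18 with a match had a median 3D minus 2D difference of 0.31 (log2) and the 9 without had 0.31.

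Each deposited value is the log2 ratio of an array to a reference of that probe set, its own median over the 16 arrays or, where that was dim, a fixed minimum. Differences between arrays can therefore be read, but 1 gene's level cannot be set against another's. A probe set with a median under its reference was called dim and not tested, which left 46 of the 72 member probe sets, for 33 genes, and 34669 on the array. Dim probe sets alone represented 10 genes: BST2, EPSTI1, IFI27, IFI44L, MX1, MX2, OAS2, SAMD9L, TRIM22 and XAF1. Among epithelial markers, EPCAM spanned -6.29 in H460 to 4.29 in H358 in 2D (log2 ratio). Of the 8 tested probe sets of the 7 epithelial markers, 0 were called between cultures. Their mean 3D minus 2D difference was 0.245 ± 0.645 (log2, SD, n = 8 lines), above 0 in 4 lines and highest in A549 (1.45). Leukocyte markers TYROBP, FCER1G, ITGB2, CD3E and MS4A1 had dim medians, and 0 of the 7 tested leukocyte probe sets were called between cultures. The mean of the 6 tested leukocyte genes was nonetheless higher in 3D in 7 of 8 lines, by 0.23 ± 0.21 (log2, SD, n = 8 lines) and most in A549 (0.58), where CD14 alone gained 3.52. That mean ran from -0.27 to 0.68 over the 2D arrays and from -0.27 to 0.99 over the 3D arrays, and its part in the members' differences was not tested. The array's 18S ribosomal RNA controls were lower in 3D in 8 of 8 lines, by a mean of -1.15 ± 1.06 (log2, SD, n = 8 lines), most in H23 (-3.45) and least in H1437 (-0.08). Beside each called member its value with that 18S level as a covariate is given. Because the 18S level was lower in 3D in every line, it overlaps with the culture, and that fit cannot fully separate them.

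IFITM1, LGALS3BP and IFITM2 were the members called higher in 3D, IFITM2 only at the threshold. A call is a Benjamini-Hochberg adjusted p under 0.05 over all 34669 probe sets, from limma with the cell line as a block. Of the 46 member probe sets, 3 were called higher, against 2.67% of all probe sets, and 0 were called lower, against 4.44%. At an unadjusted limma p under 0.05, 18 member probe sets were higher (39.1%; all probe sets 10.9%) and 1 was lower (2.17%; all 15.2%). The mean difference lay above 0 for 39 of the 46 (84.8%; all 49.0%), and the median difference was 0.32 for members and -0.01 for all (log2). In a bulk array, more cells with a transcript and more of it per cell cannot be told apart. A single line moved the count of calls: 1 member was called without A549, H358, H460, H661 or H1703, and 5 without H1437.

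IFITM1 encodes a small membrane protein that restricts the entry of enveloped viruses at the cell surface. In 2D the log2 ratio ran from -2.57 in H661 through a median of -1.13 to 3.80 in H358, and in 3D from -1.74 in H661 through 0.49 to 6.52 in H358. The 2 ranges overlap because lines differ more than cultures do, but within every line the 3D array was the higher one. The gain was 2.73 in H358, 2.36 in A549, 2.24 in H1703, 1.96 in H23, 1.45 in H1437, 0.97 in H460, 0.82 in H661 and 0.24 in A427. Its mean was 1.59 ± 0.87 (log2, SD, n = 8 lines), 3.02-fold, with a 95% interval of 1.01 to 2.18 and a limma adjusted p of 0.0160. Without each line in turn the mean lay between 1.43 and 1.79 and IFITM1 stayed called, while with the 18S covariate it was 1.39 with a limma adjusted p of 0.373.

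IFITM2 and IFITM3 restrict viruses in the endosomes, and both lie beside IFITM1. IFITM2 had a 2D median of -0.58 and a 3D median of 0.49, with gains of 2.28 in A549, 1.50 in H23, 1.49 in H358, 1.46 in H460, 0.73 in H1437 and 0.40 in A427. H1703, the highest line in 2D (1.15), had a difference of -0.10, and H661 sat at the lowest ratio in the table (-6.64) in both cultures, so no difference could be read there. With H661 entered as 0, the mean was 0.97 ± 0.85 (SD, n = 8 lines; limma adjusted p = 0.0498), 1.96-fold, and over the other 7 lines it was 1.11 ± 0.81 (limma adjusted p = 0.0504). This call lay at the threshold and was lost without any 1 line, with limma adjusted p from 0.0504 without H661 to 0.120 without H358; with the 18S covariate the mean was 0.67 (limma adjusted p = 0.595).

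IFITM3 gave 0.77 ± 0.70 (SD, n = 8 lines, H661 entered as 0) and missed the threshold at a limma adjusted p of 0.0673, and over the other 7 lines it gave 0.88 ± 0.68 (limma adjusted p = 0.0576). Its gains were 1.56 in A549, 1.39 in H358, 1.27 in H460, 1.23 in H23, 0.80 in H1437 and 0.17 in A427, H1703 had -0.25, and H661 again lay at the lowest ratio in both cultures. The lines thus took nearly the order seen for IFITM2, and IFITM1 differed from both in H1703, where it gained 2.24. IFITM proteins are near copies of each other, and the probe sets used carry the array's suffixes for sequence shared between transcripts, so signal from one could be counted for another.

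**Figure D1:**
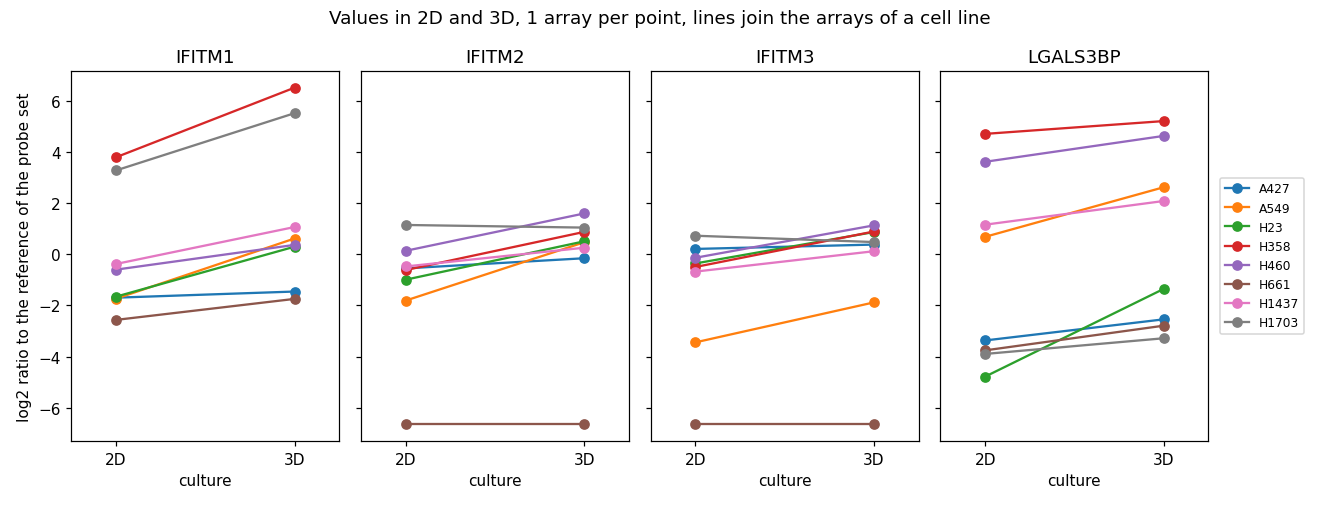
Log2 ratios of IFITM1, IFITM2, IFITM3 and LGALS3BP (vertical axis) in 2D and 3D (horizontal axis), 1 point per array, with the 2 arrays of a cell line joined. IFITM1 and LGALS3BP climb in all 8 lines, H358 reaches 6.52 for IFITM1 in 3D, and H661 lies flat at -6.64 for IFITM2 and IFITM3.

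LGALS3BP, a secreted glycoprotein that binds galectins and matrix proteins, was the other called member that was higher in all 8 lines. Its 2D values fell in separate ranges, from -4.79 in H23, -3.90 in H1703, -3.76 in H661 and -3.37 in A427 to 0.69 in A549, 1.16 in H1437, 3.62 in H460 and 4.72 in H358. In 3D the lowest was H1703 (-3.28), the median 0.37 and the highest H358 (5.22). The gain was largest in H23 (3.43), which had the lowest 2D value, then A549 (1.94), and lay between 0.50 in H358 and 1.01 in H460 in the other 6 lines. The mean was 1.28 ± 0.97 (SD, n = 8 lines; limma adjusted p = 0.0324), 2.43-fold. H23 was also the line with the largest 18S difference, and with the 18S covariate the mean was 0.41 (limma adjusted p = 0.646). Without H23 it was 0.97 and still called (limma adjusted p = 0.0340). The limma adjusted p passed 0.05 without A549 (0.0663), H358 (0.0585), H460 (0.0672), H661 (0.0581) or H1703 (0.0565).

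The RNA-binding and sensing genes had means above 0 in 9 of 9 tested probe sets, of which 0 were called. IFIT1, IFIT2, IFIT3 and IFIT5 encode tetratricopeptide proteins that bind viral RNA lacking a host cap mark, and IFIH1 (MDA5) and DDX60 encode helicases of RNA sensing. The mean over these 6 genes was 0.39 ± 0.26 (log2, SD, n = 8 lines), above 0 in 8 of 8 lines, from 0.05 in H1437 to 0.88 in H358. IFIT1 had 1.60 in H358, 1.49 in A427, 0.76 in H661, 0.57 in H1437, 0.56 in H460 and 0.22 in H1703, but -0.29 in H23 and -0.72 in A549 (mean 0.52, limma adjusted p = 0.199). Its lowest array was A427 in 2D (-3.87), so the gain there left A427 still the lowest line in 3D (-2.38).

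For IFIT2 the 2 probe sets gave different answers, 0.60 (limma adjusted p = 0.0513, 7 of 8 lines higher) and 0.03 (3 of 8 lines higher). The 2 IFIT3 sets gave 0.39 and 0.29, and the 2 IFIT5 sets 0.36 and 0.07. In the first IFIT5 set H358 (1.44) stood apart from the other lines, which ran from -0.01 to 0.54. DDX60 was higher in 7 lines, from 0.12 in A427 to 1.39 in H661, and had -0.59 in H1437 (mean 0.62 ± 0.62, limma adjusted p = 0.0805). Without H1437 its mean was 0.79 and it was called (limma adjusted p = 0.0268). IFIH1 had 1.03 in A549 and 0.93 in H358, and ran from -0.35 to 0.48 in the other 6 (mean 0.35, limma adjusted p = 0.190).

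Enzymes that act on RNA or nucleotides had a mean of 0.35 ± 0.49 (log2, SD, n = 8 lines) over 6 genes, 1.32 in H358 and -0.25 in H661, and 0 of their 10 probe sets were called. ISG20, an exonuclease that degrades single-stranded RNA, gained 2.24 in H1437, 2.11 in A549, 1.16 in H358 and 1.04 in H23 in one probe set, with -0.85 in H661 and -0.21 in H1703 (mean 0.75, limma adjusted p = 0.173). Its second probe set gave 0.64, with A549 (1.98) and H1437 (1.81) again the highest and H661 (-0.87) the lowest. OAS1, which makes the short adenylate chains that activate RNase L, gained 2.14 in H358 and 1.91 in its second probe set there. The other lines ran from -0.10 to 0.90 in the first set, and the mean was 0.53 ± 0.75 (limma adjusted p = 0.175). OAS3, of the same family, gave -0.14 and -0.04, with H358 positive (1.22 and 0.76) and H661 negative (-1.82 and -1.0).

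OASL, a family member that lacks the synthetase activity, gave 0.33 in both probe sets, and with the 18S covariate the one of higher mean ratio changed sign to -0.09. CMPK2, a mitochondrial nucleotide kinase, gained 2.20 in H358 and 1.06 in H460, and lay between -0.19 and 0.07 in the other 6 lines (mean 0.40, limma adjusted p = 0.382). RSAD2 (viperin), whose product makes a chain-terminating nucleotide, gained 1.30 in H358 and lay between -0.19 and 0.23 elsewhere.

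The ISG15 conjugation genes averaged near 0. ISG15 is a ubiquitin-like protein, HERC5 the ligase that attaches it, HERC6 a relative of HERC5, and USP18 the protease that removes it and also dampens the interferon receptor. Their mean was -0.03 ± 0.31 (log2, SD, n = 8 lines), with 0 of 4 probe sets called. HERC5 was the only member lower at an unadjusted limma p under 0.05, with a mean of -0.38 ± 0.34 (limma adjusted p = 0.0831). It ran from -1.05 in H661 to -0.35 in H460 in 6 lines, with 0.05 in H1437 and 0.01 in H1703. ISG15 had 0.45 in H1437 and 0.36 in H358 and ran from -0.65 to -0.03 in the other 6 (mean -0.10). HERC6 gained 1.08 in A549 and 1.02 in H358 (mean 0.13), and USP18 gained 1.02 in H358 and 0.54 in A549 (mean 0.23).

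PARP9 and DTX3L form a complex that couples ADP-ribose and ubiquitin, and PARP14 is a related ADP-ribosyltransferase. The 3 genes had a mean of 0.34 ± 0.63 (log2, SD, n = 8 lines), 1.23 in both A549 and H358, and 0 of 4 probe sets were called. PARP9 gave 0.69 and 0.67 in its 2 probe sets (limma adjusted p = 0.110 and 0.117). One set gained most in H358 (2.36) and the other in A549 (2.00). DTX3L gained 1.70 in A549, 0.96 in H460 and 0.76 in H358, and lay between -0.38 and -0.01 in the other 5 (mean 0.30, limma adjusted p = 0.440). PARP14 gained 1.24 in H358 and 0.75 in A549 and lay between -0.56 and 0.07 elsewhere (mean 0.04).

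Of the transcription factors, IRF9 gave 0.64 ± 0.78 (log2, SD, n = 8 lines; limma adjusted p = 0.127). It gained 1.94 in H1437, 1.36 in H358, 0.85 in H460, 0.82 in H23 and 0.62 in A549, and had -0.07 in H661, -0.10 in A427 and -0.32 in H1703. IRF7, which drives interferon genes once induced, gained 1.36 in H1437 and 1.01 in H358 and in H460, and had -1.06 in H1703 (mean 0.37, limma adjusted p = 0.409). IRF1 gave 0.31 and 0.32 in its 2 probe sets, with the highest value in H460 (1.36) in one and in H1703 (0.70) in the other. None of these 4 probe sets was called. The guanylate-binding GTPases GBP1 (0.07 and 0.15) and GBP2 (0.30) were not called either, and GBP2 ran from -0.65 in H1437 to 1.09 in A549.

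Among the remaining members, IFI16, a nuclear DNA sensor, gave 0.64 in 2 probe sets and -0.04 in the third, and in all 3 H1437 had the lowest difference (-1.03, -0.94 and -2.03). IFI44 was higher in 7 of 8 lines and gained most in H358 (1.12; mean 0.32, limma adjusted p = 0.227). IFI35 gained 1.60 in H358 with a mean of 0.05. IFI6, a small protein of the endoplasmic reticulum and mitochondria, gained 1.39 in H1437, had 0.11 in H23 and ran from -0.91 to -0.37 in the other 6 (mean -0.25). SAMD9 gave 0.03 and -0.06.

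Gains were uneven over the lines, and H358 had the highest average. Over the 33 tested genes, each the mean of its tested probe sets, the mean difference was 0.99 in H358, 0.68 in A549, 0.48 in H23, 0.34 in H1437, 0.27 in H460, 0.12 in A427, 0.10 in H1703 and -0.03 in H661 (log2). The mean over lines was 0.37 ± 0.34 (SD, n = 8 lines), 0.28 without H358, against -0.01 for all 14113 genes measured the same way. Under quantile normalization the H358 mean was 0.62, below that of A549 (0.72), and the H661 mean was 0.11. In all, 28 of the 33 genes had a mean above 0 (84.8%; all genes 48.6%), and 25 did without H358.

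A gain of 2-fold or more was seen for 18 of the 33 genes in H358 (54.5%; all genes 3.76%) and for 11 in A549 (33.3%; all genes 3.98%). The count was 9 in H23 (27.3%; all genes 2.56%), 5 each in H460 and H1437 (15.2%; all genes 1.96% and 2.08%) and 2 in H1703 (6.06%; all genes 1.25%). It was 1 each in A427 and H661 (3.03%; all genes 0.61% and 2.58%), so H661 lay near the share of all genes. Losses of 2-fold or more were 2 in H661 (all genes 4.88%) and 1 each in H1437 and H1703 (all genes 1.74% and 0.99%). Of the 33, 6 genes gained 2-fold or more in H358 and in no other line, 14 did so in 2 or more lines, and 7 in none. H358 held the largest gain for 13 genes (14.1% of all genes had theirs there) and A549 for 8 (12.3%). These per-line counts come from 1 array per line and culture and have no test. In the same order of lines as the member means, the 18S difference was -0.81 in H358, -0.98 in A549, -3.45 in H23, -0.08 in H1437, -1.61 in H460, -0.13 in A427, -0.94 in H1703 and -1.23 in H661.

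**Figure D2:**
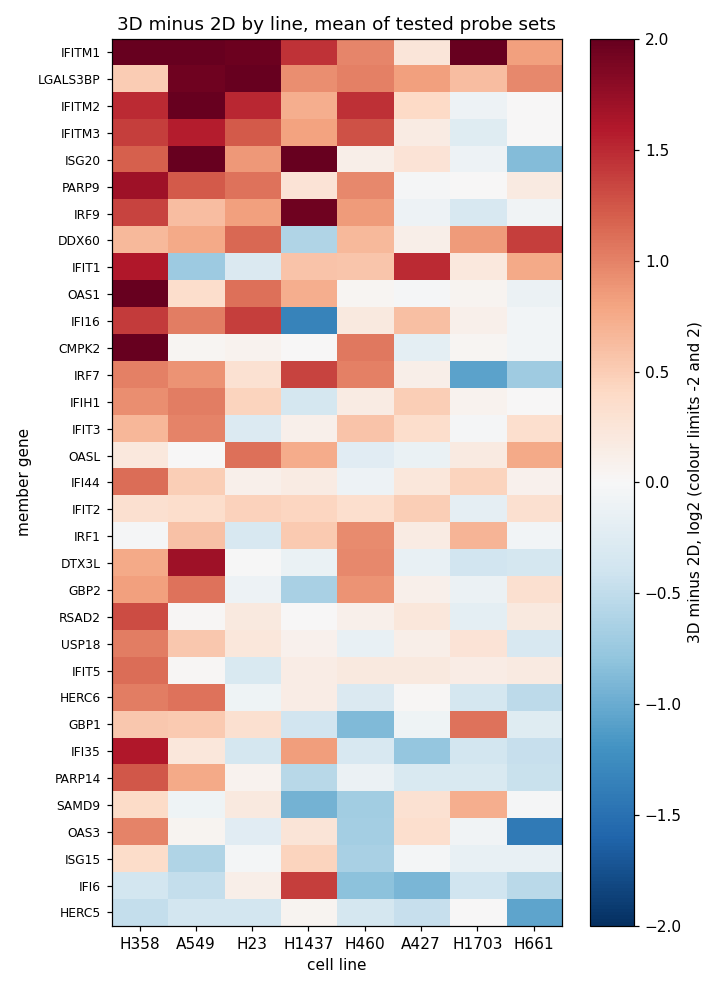
3D minus 2D difference (colour, log2, limited to -2 and 2) of the 33 tested member genes (rows, by mean) in 8 cell lines (columns, by member mean). Red fills most of the H358 column (30 of 33 genes above 0) and the IFITM1 and LGALS3BP rows, and HERC5 at the foot is blue or near white.

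The members' differences were only weakly alike over lines. The mean correlation between 2 members' differences over the 8 lines was 0.23, against 0.02 over all genes, and 0.10 over the 7 lines without H358. For 2D values it was 0.38 (all genes 0.03), and 0.17 without H358. These are descriptions over 8 lines, and all members of a line share its arrays.

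Members differed more between lines than between cultures. In limma's F-test over the line terms, which takes the 2D and 3D arrays of a line as its 2 arrays, 46 of the 46 member probe sets were called, against 76.2% of all. The range over lines in 2D had a median of 5.09 for members and 1.66 for all tested probe sets (log2), and the SD of the 3D minus 2D difference a median of 0.70 against 0.36. In 2D, H358 was the highest line for 21 of the 33 genes (11.0% of all genes), and in 3D for 25. H661 was the lowest in 2D for 14 (12.4% of all genes).

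The member mean in 2D was 2.32 in H358, 0.49 in H460, 0.15 in H1703, -0.08 in H1437, -0.20 in A427, -0.66 in A549, -0.97 in H23 and -1.70 in H661. The 2 lines with the largest gains therefore began at opposite sides of the middle, H358 as the highest and A549 as the third lowest. IFI44 (6.66 in 2D), SAMD9 (6.78), DDX60 (4.60), OASL (3.66) and IFIT3 (2.63) were highest in H358. Other lines led for single genes. A427 had IFIH1 at 6.02 against 2.19 in H358, the next line, and CMPK2 at 5.0. H460 led for ISG20 (3.16). For OAS1, H460 (3.78) was 0.56 above H1437 (3.23) in one probe set, close to the spread of a single array there (0.53), and H1437 (3.38) was above H460 (3.11) in the other. For IFITM1, H358 and H1703 (3.28) differed by 0.51, less than the spread of a single array (0.61), and stood 3.66 above the next line. For both genes that spread is taken from the 3D minus 2D differences over lines, so it includes uneven gains between lines. It cannot decide whether 2 lines differ in 2D.

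The order of lines carried over to 3D. The correlation of 2D with 3D values over the 8 lines had a median of 0.95 for the 33 genes (all genes 0.87), and 24 of them exceeded 0.9. The lowest was 0.81.

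**Figure D3:**
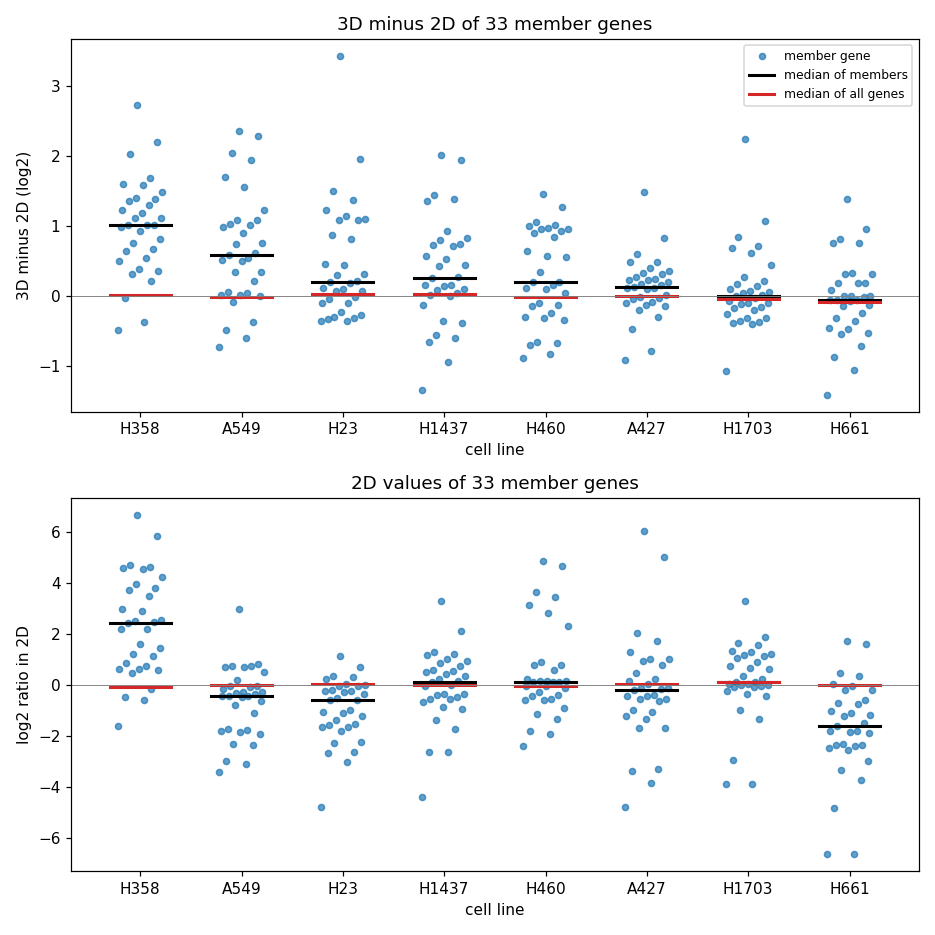
Each point is 1 of 33 member genes in a cell line (horizontal axis); the upper panel shows the 3D minus 2D difference and the lower panel the 2D log2 ratio, with black bars for the member median and red bars for the median of all genes. H358 has the highest member median in both panels (1.02 and 2.43), and H661 the lowest (-0.05 and -1.62).

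Most dim member probe sets, left out of the test, gained more in H358 than in any other line. Of 26 dim member probe sets, 19 had their largest 3D minus 2D difference in H358 (73.1%; all dim probe sets 10.6%), and 17 gained 1 or more there (65.4%; all dim 2.33%). In 2D, 12 of the 26 were already highest in H358. Members and all dim probe sets were not matched for brightness, which limits the contrast of these shares. MX1 and MX2, dynamin-like GTPases that trap viral nucleocapsids, went from 3.59 to 6.69 and from 2.67 to 5.22 in H358. MX1 was also bright in H1437 (3.30 in 2D and 4.32 in 3D) and at or below 0.06 in the other 6 lines in both cultures. OAS2 went from 2.19 to 4.17 in H358 and from 0.06 to 2.03 in H1437 in 1 of its 3 probe sets. The others gained 1.23 and 3.03 in H358, and 0.54 and 1.56 in H1437.

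IFI27 was high in H358 in both cultures (8.83 and 10.3), and H1437 went from 0.01 to 3.67. IFI44L was bright in H358 (7.05 and 8.84) and H460 (4.74 and 4.43), with the other 6 lines at -0.70 or below. TRIM22, an antiviral ubiquitin ligase, went from -1.03 to 2.24 in H358 and was bright in A549 in both cultures (3.04 and 2.67). BST2 (tetherin), which holds budding virions at the surface, was high in H1437, H358 and A427 in 2D (6.99, 6.83 and 5.10) and at -0.88 or below in the other 5 lines. EPSTI1 went from 3.05 to -0.19 in H460, opposite to H358 (2.00 to 3.76), in 1 of its 2 probe sets. The other set had a difference of -0.14 in H460 and 2.47 in H358. A dim probe set has no median of its own to refer to, so these values say which arrays were bright and carry no test.

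**Figure D4:**
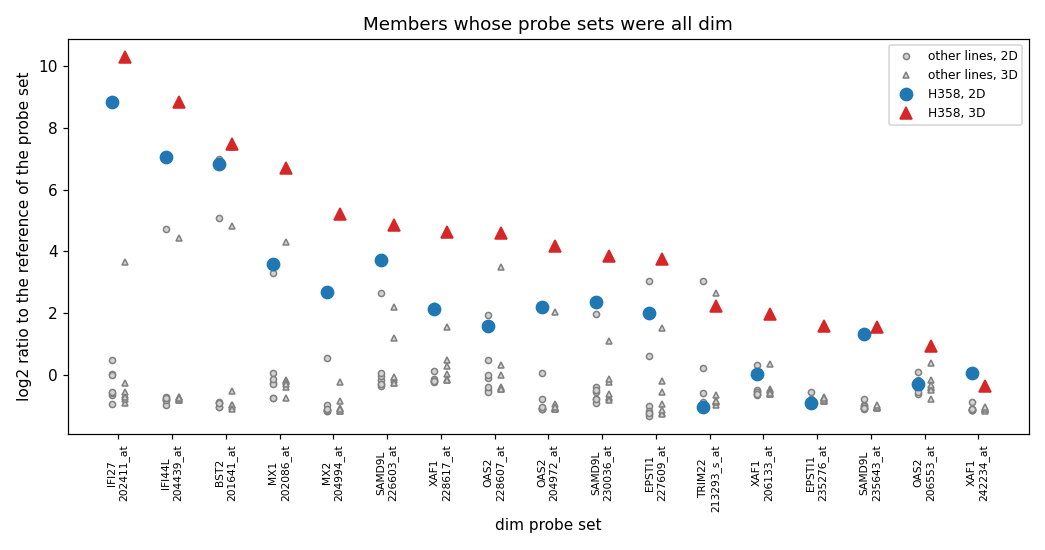
Log2 ratios (vertical axis) of the 17 probe sets of the 10 members whose probe sets were all dim (horizontal axis), 1 point per array; large blue circles and red triangles are H358 in 2D and 3D, small grey ones the other 7 lines. H358 in 3D is the highest array for most of these probe sets, from 10.3 for IFI27 downwards.

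Genes up- and downstream of the members were read from lists made with earlier results known. For comparison with the counts of calls in these lists, 2.67% of all tested probe sets were called higher and 4.44% lower. The counts were not tested against those shares. Of the interferon genes, 9 of 10 had a probe set (IFNA1, IFNA2, IFNB1, IFNE, IFNG, IFNK, IFNL1, IFNL2 and IFNW1), and all 9 had a dim median. Single arrays were brighter: IFNE had 2.61 in A549 in 2D and a difference of -0.55 there, and IFNL1 gained 1.01 in H358 from -0.30. Among 21 probe sets of receptors and Janus kinases 2 were called higher, both of IFNGR1, the ligand-binding chain of the interferon gamma receptor (0.58 and 0.54, 8 of 8 lines; limma adjusted p = 0.0308 and 0.0427). Of 20 probe sets of nucleic acid sensors and adaptors 2 were called lower: 1 of CGAS, the cytosolic DNA sensor (-1.77, limma adjusted p = 0.00917, lower in 8 of 8 lines), whose other tested set gave -0.22, and 1 of the adaptor MAVS (-1.10, limma adjusted p = 0.0264), another set of which gave 0.49. For both genes the probe sets differed.

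Of 26 probe sets of transcription factors and feedback genes 1 was called, the inhibitor PIAS1 (0.57, limma adjusted p = 0.0233; its other sets 0.10 and 0.02). Of 26 for MHC class I and the immunoproteasome 1 was called higher, HLA-E (0.81, limma adjusted p = 0.0427; its other sets 0.25 and 0.28). A further list of interferon-stimulated genes had 1 of 40 probe sets called, TRIM25, the ligase that activates RIG-I (-0.49, limma adjusted p = 0.0241, lower in 8 of 8 lines). The mean of that list was 0.06 ± 0.28 (log2, SD, n = 8 lines), 0.51 in H358 and -0.0035 without it. With the 18S covariate none of these 7 list calls was kept: the limma adjusted p ran from 0.307 (CGAS) to 0.585 (HLA-E), and the differences kept their sign. Markers of plasmacytoid dendritic cells, fibroblasts and endothelium had 0 calls among 9, 14 and 4 tested probe sets.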

How the data were processed

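The authors deposited log2 ratios of 54675 probe sets on 16 Affymetrix arrays; how they summarised probes and normalized arrays is not given in the sources used here. The reference was read from the values: the linear median of the probe set or, if dim, a fixed minimum. Names came from the platform annotation, updated through RefSeq (GRCh38.p14). Probe sets with a log2 linear median under -0.001 and 62 array controls were left out. The other 34669 went through lmFit and eBayes with a trend (limma 3.58.1, R 4.3.3), the cell line as block. The labels name the line that pairs 2 arrays, and 16 of 16 arrays correlated best with their pair (r 0.756 to 0.920).

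A gene's value is the mean of its tested probe sets, or, where 1 is needed, that of highest mean over arrays. Named in full were called members, then those of largest absolute difference, to 20 genes. The spread of a single array is the SD of the difference over the square root of 2. It holds array noise and differences in gain between lines alike. Steps were tested on simulated data. Members, lists and tests were chosen with earlier results of these data known. The p-values measure the spread between lines, and precision is limited by 1 array per line and culture. Alternatives changed the filter, probe set choice, normalization, variance model, 18S covariate, block and lines.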

Additional observations from a re-analysis of the deposited data

Results flagged for a closer look

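In 6 cases a value of a member gene stood apart within its group of 8 lines, by Dixon's test at 95%, out of 61 groups tested; chance alone marks about 1 group in 20. The OAS1 difference in H358 was 2.14 and the IFIT5 difference in H358 was 1.44. IFITM2 in H661 was -6.64 in 2D and -6.64 in 3D, and IFITM3 in H661 was -6.64 in 3D, all at the lowest ratio of the table. IRF9 in 3D was 3.91 in H358.

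Probe sets left out as dim gave a signal in 3D that exceeded every 2D array by 1 or more (log2 ratio), each time in H358. These were IFI27 (10.3), IFI44L (8.84), MX1 (6.69), MX2 (5.22), a second RSAD2 set (4.97), SAMD9L (4.85 and 3.86), XAF1 (4.63 and 1.97), OAS2 (4.60 and 4.17), a second GBP2 set (2.14) and an EPSTI1 set (1.58). No test of these values was made.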

How the results depend on the processing

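Over all probe sets, 2464 were called in either direction. The count was 1091 with no filter on dim probe sets, 1406 when probe sets with suffix s or x were dropped, 849 with the highest-mean probe set per gene, 860 with the gene mean, 2 with the 18S covariate and 8 with no cell line block; without each line in turn it lay between 554 (without H358) and 2591 (without A427). Members called higher were 3 of 46, and 1 (IFITM1) of 72 with no filter and of 46 under quantile normalization. Without the lowest 25% of tested probe sets 1 of 26 was called (IFITM1), and LGALS3BP and IFITM2 were not tested. Without suffix s or x 1 of 28 was called (LGALS3BP), and IFITM1 and IFITM2 were not tested. Members called higher were 0 with the 18S covariate (5 members and 3565 of all probe sets at an unadjusted limma p under 0.05). They were 0 with no cell line block (0 members and 1458), and 1 to 5 without each line in turn. The line is the pairing of this design, so the fit without the block compares unpaired arrays. OASL changed sign to -0.0854 with the 18S covariate. IFITM1 passed in 18 of 20 alternatives, LGALS3BP in 11 of 20, IFITM2 in 2 of 19 and IFITM3 in 0 of 19. Why counts and calls moved was not tested, beyond the fewer lines or probe sets in some alternatives. The member mean (0.37) and the count of members differing between lines kept their direction throughout the alternatives run for them.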

Other observations

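Several members lie beside each other in the genome, by the gene order of GRCh38.p14: 13 pairs, of which 9 had tested probe sets for both genes. Their agreement over the 8 lines is given as a description, since neighbours share arrays and sometimes sequence. IFITM1 correlated with its neighbours IFITM2 and IFITM3 at 0.46 and 0.45 in 3D minus 2D differences and at 0.57 and 0.53 in 2D. IFITM2 and IFITM3, which have IFITM1 between them, correlated at 0.97 in differences and at 0.95 in 2D, and at 0.96 and 0.81 over the 7 lines without H661, which lay at the lowest ratio for both. DTX3L and PARP9 correlated at 0.75 and 0.97, and HERC5 and HERC6 at 0.12 and 0.84, so the HERC pair shared its order of lines in 2D and not its differences.

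CMPK2 and RSAD2, neighbours that are both bright in H358, correlated at 0.84 in differences and at 0.59 in 2D. A427 set them apart, with CMPK2 at 5.0 and RSAD2 at 0.04 in 2D (log2 ratio). Of the IFIT genes, IFIT2 and IFIT3 correlated at 0.91 in 2D and 0.18 in differences, while IFIT1 and IFIT5 did the reverse, with 0.18 in 2D and 0.73 in differences. These values use the mean of a gene's tested probe sets. The sets disagreed for IFIT2 (mean differences 0.60 and 0.03) and IFIT5 (0.36 and 0.07), which limits the contrast.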
